A study of Mus musculus with 20 samples.

Results

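The 10 genes described here (Nr3c1, Hsd11b1, Fkbp5, Tsc22d3, Dusp1, Sgk1, Cdkn1a, Klf9, Zbtb16 and Mt2) are genes of the glucocorticoid response, taken by name from the 56805 genes in the count tables. All 10 had enough reads to be tested, along with 21306 genes in all. They were measured by RNA sequencing in mouse white adipose tissue, in 4 groups of 5 mice that were kept for 10 weeks on a high-fat diet with a water extract of Tibetan tea (high-fat tea), a high-fat diet with water (high-fat water), chow with the tea extract (chow tea) or chow with water (chow water). The mice were randomly assigned, and every group is of separate animals. The sources used here do not give strain, sex, age, fat depot or collection hour. The adipocyte hormone gene Adipoq was read at 844 to 4157 CPM (counts scaled to a common library size) across the libraries, and none of the 20 libraries had it at 0.

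Glucocorticoids such as corticosterone, the main one in mice, act through the glucocorticoid receptor, which Nr3c1 encodes. The bound receptor enters the nucleus and switches on genes such as Fkbp5, Tsc22d3, Sgk1, Klf9 and Zbtb16 in many tissues. In fat, Hsd11b1 encodes the enzyme that turns the inactive hormone into the active one inside the cell. Circulating corticosterone follows a daily rhythm, and in adipose tissue glucocorticoids promote fat cell differentiation and act on lipid breakdown and inflammation.

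The libraries held 53047057 to 93314761 reads in genes, and the 9 members other than Mt2 had 821 to 28075 reads in each. Transcripts of other organs reached over 10000 CPM in chow water replicate 1 (pancreas), high-fat water replicate 4 (epididymis, testis or seminal vesicle, and adrenal cortex) and high-fat tea replicate 4 (kidney), and over 1000 CPM, muscle included, in 9 libraries that count these 3. The 8 adipocyte markers summed to 7753 CPM in chow water replicate 1 and 9526 CPM in high-fat tea replicate 4, against at least 22647 CPM in each high-fat water library. Results that change without these libraries are given with and without them.

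The promoter of Nr3c1 was not searched, and no window was available for Zbtb16. RefSeq promoter windows (250 bases before to 50 bases after a gene's start, build GRCm38.p6) were used for the other 8 of the 10 members, in 16 windows. They were searched on both strands for the full glucocorticoid response element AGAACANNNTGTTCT, its half-site AGAACA, the cyclic AMP response element TGACGTCA with its half-site TGACG, the TATA box TATAAA, the E-box CACGTG, metal response elements (TGCGCNC and TGCACNC) and a paired p53 core (CATGNNNNNNCATG). The full glucocorticoid element was in 1 of the members' windows, of Sgk1, and in 3 of 32851 windows of all genes (0.00913%). Its half-site, which is part of the full element, was in 19.0% of all windows, TGACG in 20.8% and TATAAA in 13.6%. The windows below were chosen for their matches, the full glucocorticoid element (Sgk1), the paired p53 core (Cdkn1a), an E-box (Fkbp5), the cyclic AMP element (Dusp1) and metal elements (Mt2). A single metal element match in the window of Hsd11b1 and in another window of Sgk1 is not shown. Capitals mark every match other than those of half-sites and the TATA box. Sgk1 has 6 windows with different starts, and the full element is only in the printed one, window 5. There the E-box begins 246 bases and the full element 189 bases before the start of that window's transcript. Cdkn1a has 2 windows with different starts, and in the printed one the paired p53 core begins 48 bases before the start (0.712% of all windows). Its other window, further downstream, holds no paired p53 core. In Fkbp5 an E-box begins 169 bases before the start (7.15%). In Dusp1 the cyclic AMP element begins 143 bases before the start (1.79%), followed by an E-box and by a metal element on the reverse strand (15.4% of windows for the TGCGCNC form). The window of Mt2 holds 2 matches of each metal element form (12.6% of windows for the TGCACNC form).
Sgk1 (chr10:21993640-21993939, plus strand): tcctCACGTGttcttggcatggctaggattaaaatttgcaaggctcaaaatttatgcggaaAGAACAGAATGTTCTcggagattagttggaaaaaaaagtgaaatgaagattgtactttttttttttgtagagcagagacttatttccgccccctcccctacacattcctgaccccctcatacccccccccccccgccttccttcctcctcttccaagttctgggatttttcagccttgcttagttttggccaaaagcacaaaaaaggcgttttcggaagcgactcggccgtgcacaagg
Cdkn1a (chr17:29090729-29091028, plus strand): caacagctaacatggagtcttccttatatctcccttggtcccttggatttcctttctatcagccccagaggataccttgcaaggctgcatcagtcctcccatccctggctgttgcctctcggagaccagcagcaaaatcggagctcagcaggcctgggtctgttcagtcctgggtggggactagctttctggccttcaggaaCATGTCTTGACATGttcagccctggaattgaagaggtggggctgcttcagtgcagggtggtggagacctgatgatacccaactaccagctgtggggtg
Fkbp5 (chr17:28486100-28486399, minus strand): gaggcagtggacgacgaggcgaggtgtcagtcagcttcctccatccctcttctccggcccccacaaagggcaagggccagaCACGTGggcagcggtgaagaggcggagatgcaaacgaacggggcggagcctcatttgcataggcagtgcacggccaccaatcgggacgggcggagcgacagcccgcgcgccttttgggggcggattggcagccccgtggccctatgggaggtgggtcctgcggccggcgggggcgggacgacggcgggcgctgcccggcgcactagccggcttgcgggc
Dusp1 (chr17:26508423-26508722, minus strand): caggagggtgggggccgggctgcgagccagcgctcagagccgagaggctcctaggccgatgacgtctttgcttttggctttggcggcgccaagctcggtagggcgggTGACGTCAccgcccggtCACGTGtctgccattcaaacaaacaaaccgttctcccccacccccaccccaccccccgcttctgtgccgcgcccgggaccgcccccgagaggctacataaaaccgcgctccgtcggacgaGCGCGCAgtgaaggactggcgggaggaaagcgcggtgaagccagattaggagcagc
Mt2 (chr8:94172368-94172667, plus strand): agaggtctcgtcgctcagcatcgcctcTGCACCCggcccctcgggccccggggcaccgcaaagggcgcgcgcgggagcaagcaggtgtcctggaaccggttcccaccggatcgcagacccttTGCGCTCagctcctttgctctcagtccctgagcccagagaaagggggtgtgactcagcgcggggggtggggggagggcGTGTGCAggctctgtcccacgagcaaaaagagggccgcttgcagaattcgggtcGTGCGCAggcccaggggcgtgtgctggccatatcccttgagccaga
These matches are a description of the letters, and no binding was measured.

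After high-fat feeding in water-drinking mice, 5 of the 10 genes fell and 0 rose (edgeR quasi-likelihood test, Benjamini-Hochberg adjusted p below 0.05 over all genes). Of all genes tested 7.11% were called lower, 8.06% higher and 15.2% in either direction. The members were chosen with earlier results of these data known, so the shares are a description and not independent support. At an unadjusted p below 0.05 there were 7 members, all lower, against 30.8% of all genes, and DESeq2 called 6 members and limma voom 5. Over all genes edgeR called 3232, and the alternative fits, these methods among them, called 2052 to 4546. Cdkn1a, Fkbp5, Hsd11b1, Zbtb16 and Sgk1 fell, at 0.18 to 0.39 of their chow water level. The members' median log2 change was −1.46, against −0.00 over all genes tested. In 3 members, Cdkn1a, Fkbp5 and Sgk1, no high-fat water library reached the chow water range, and 5.59% of all genes had such a separation downwards. In bulk tissue, fewer cells of a type and less RNA per cell cannot be told apart.

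**Figure D1:**
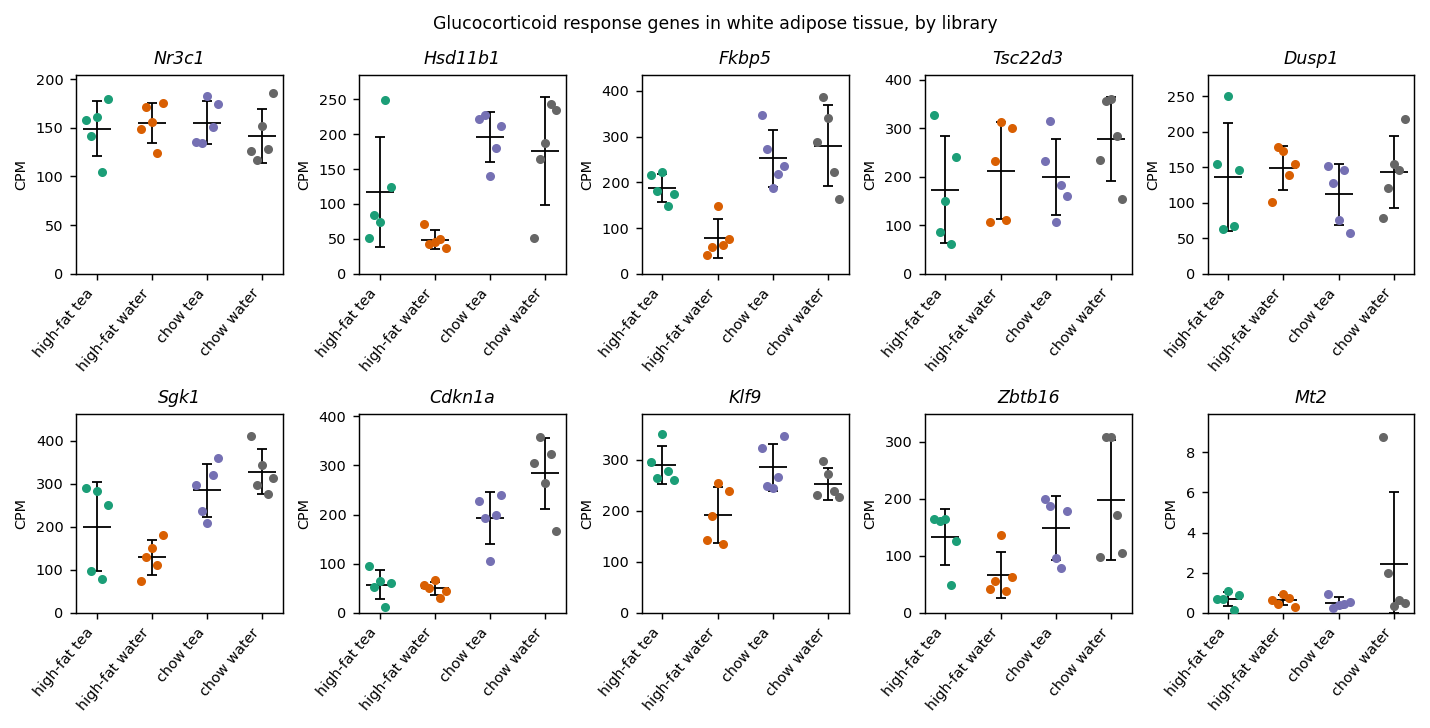
CPM of each of the 10 genes by library (points) in the 4 groups, with the mean and SD (bars, n = 5; the lower SD bar of Mt2 in chow water is cut at 0). Cdkn1a lies at 12.7 to 96.2 CPM in high-fat tea and 29.6 to 66.4 CPM in high-fat water, against 106 to 240 CPM in chow tea and 168 to 358 CPM in chow water, while Nr3c1 spans 105 to 185 CPM over all libraries.

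The receptor gene had the smallest ratio of highest to lowest library among the members. Nr3c1 (GRCm39 chromosome 18, 39543598 to 39652474, minus strand) averaged 149 ± 28.1 CPM in high-fat tea, 155 ± 20.4 CPM in high-fat water, 155 ± 22.1 CPM in chow tea and 142 ± 27.7 CPM in chow water (SD, n = 5 each). The groups overlapped, and its highest library was 1.77 times its lowest. Within groups its spread was not always the smallest, as the coefficient of variation of Klf9 was 12.6% in high-fat tea and 12.2% in chow water, against 18.9% and 19.6% for Nr3c1. The log2 change of high-fat water over chow water was 0.13 (SE 0.15, 95% interval −0.19 to 0.45, adjusted p = 0.595), and the other comparisons of 2 groups gave log2 changes from −0.06 to 0.13.

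Hsd11b1, the activating enzyme (GRCm39 chromosome 1, 192903942 to 192946383, minus strand), was low in all high-fat water mice. It had 70.6, 42.0, 45.4, 49.8 and 36.4 CPM in high-fat water replicates 1 to 5, against 50.5, 165, 187, 244 and 235 CPM in chow water replicates 1 to 5. The groups overlapped only through chow water replicate 1, the library with pancreas transcripts. The difference was 3.6-fold (log2 −1.85, SE 0.40, adjusted p = 0.00634). In tea-drinking mice it had 51.2, 84.2, 74.7, 249 and 125 CPM in high-fat tea replicates 1 to 5, against 222, 228, 140, 180 and 211 CPM in chow tea replicates 1 to 5. The highest of all 20 libraries was thus high-fat tea replicate 4, which also held 22129 CPM of kidney markers. Without that library the log2 change of high-fat tea over chow tea was −1.23, against −0.75 with it.

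Fkbp5 encodes a co-chaperone that dampens receptor activity and is among the most widely used readouts of receptor activity (GRCm39 chromosome 17, 28618068 to 28736501, minus strand). It had 216, 180, 222, 149 and 174 CPM in high-fat tea replicates 1 to 5, against 39.8, 58.4, 149, 62.8 and 76.2 CPM in high-fat water replicates 1 to 5. It had 348, 273, 187, 218 and 235 CPM in chow tea replicates 1 to 5, against 288, 386, 340, 223 and 165 CPM in chow water replicates 1 to 5. High-fat water lay below every library of the other groups, narrowly so for replicate 3, whose 148.9 CPM compared with 149.2 CPM in the lowest high-fat tea library. Fkbp5 fell 3.63-fold in high-fat water against chow water (log2 −1.86, SE 0.30, adjusted p = 0.00101).

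Sgk1, a kinase of ion transport and cell survival (GRCm39 chromosome 10, 21758083 to 21875802, plus strand), is the member with the full response element in the window printed above. It had 73.8, 131, 150, 111 and 180 CPM in high-fat water replicates 1 to 5, against 412, 298, 343, 276 and 314 CPM in chow water replicates 1 to 5. The groups did not overlap, and the difference was 2.54-fold (log2 −1.35, SE 0.32, adjusted p = 0.0108). High-fat tea was split, with replicates 1, 3 and 5 at 290, 283 and 252 CPM and replicates 2 and 4 at 98.3 and 79.1 CPM. Chow tea ran from 209 to 359 CPM.

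Cdkn1a, the cell-cycle inhibitor p21 and a target of both the glucocorticoid receptor and p53 (GRCm39 chromosome 17, 29309950 to 29319701, plus strand), showed the largest change of the members with diet. It had 57.1, 51.5, 66.4, 29.6 and 44.5 CPM in high-fat water replicates 1 to 5, against 305, 358, 264, 324 and 168 CPM in chow water replicates 1 to 5. The difference was 5.69-fold (log2 −2.51, SE 0.39, adjusted p = 0.000758), and the groups lay far apart. It had 96.2, 52.8, 65.2, 12.7 and 61.3 CPM in high-fat tea replicates 1 to 5, against 228, 194, 106, 199 and 240 CPM in chow tea replicates 1 to 5. These groups did not overlap either.

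Zbtb16 (PLZF) and Klf9 are transcription factors that the receptor induces. Zbtb16 (GRCm39 chromosome 9, 48565597 to 48747522, minus strand) had 41.7, 55.7, 136, 38.0 and 62.4 CPM in high-fat water replicates 1 to 5, against 97.2, 308, 309, 172 and 105 CPM in chow water replicates 1 to 5. The groups overlapped through high-fat water replicate 3, and the difference was 2.96-fold (log2 −1.57, SE 0.44, adjusted p = 0.0230). Leaving out a single library ended the call in 5 cases, chow water replicate 2 or 3 and replicate 1, 2 or 4 of high-fat water (adjusted p up to 0.0653). Klf9 (GRCm39 chromosome 19, 23118590 to 23145498, plus strand) had 143, 189, 255, 134 and 239 CPM in high-fat water replicates 1 to 5, against 230, 298, 272, 239 and 226 CPM in chow water replicates 1 to 5. High-fat water replicates 3 and 5 lay within the chow water range, and the change of −0.40 (SE 0.17, adjusted p = 0.119) did not pass the test.

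Tsc22d3 and Dusp1 carry anti-inflammatory effects of glucocorticoids, as the leucine zipper protein GILZ and a phosphatase of MAP kinases. Tsc22d3 (GRCm39 chromosome X, 139440277 to 139501408, minus strand) ran from 106 to 313 CPM in high-fat water and from 154 to 360 CPM in chow water (log2 −0.39, SE 0.43, 95% interval −1.30 to 0.51, adjusted p = 0.572). Dusp1 (GRCm39 chromosome 17, 26724564 to 26781102, minus strand) ran from 101 to 178 CPM in high-fat water and from 78.4 to 218 CPM in chow water (log2 0.05, SE 0.36, 95% interval −0.70 to 0.81, adjusted p = 0.938). Both genes overlapped across all groups. Their coefficients of variation reached 63.9% and 56.0%, both in high-fat tea, against at most 19.6% for Nr3c1. Intervals this wide do not show that diet left them alike.

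Mt2, a metal-binding metallothionein induced by glucocorticoids and zinc (GRCm39 chromosome 8, 94899292 to 94900196, plus strand), cannot be read as a level here. Of its 588 exonic bases, 432 (73.5%) overlap Gm45774 on the opposite strand. Per the file headers, reads were counted without strand and without the option that keeps reads overlapping 2 genes, so reads on the shared bases could be left out. It had 8 to 268 reads per library. Its level was 0.308 to 0.949 CPM in high-fat water and 0.346 to 8.73 CPM in chow water, with the highest value in chow water replicate 1. The log2 change of −1.94 (SE 0.76, adjusted p = 0.0895) was not called, became −0.49 without that library, and was called by DESeq2 (adjusted p = 0.0304). Its neighbour Mt1, another metallothionein and no member, averaged 82.2 CPM in high-fat water and 338 CPM in chow water (log2 −2.04, SE 0.50, adjusted p = 0.0121), where chow water replicate 1 was again highest at 994 CPM.

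Leaving out Mt2, the other 9 members ranked differently by level in the groups. On the scale of CPM per kilobase of exon, Cdkn1a was first in chow water at 79.8 ± 20.6, ahead of Sgk1 at 67.0 ± 10.7 by less than the larger SD (n = 5). In high-fat water Cdkn1a was sixth at 14.0 ± 3.9 and Tsc22d3 first at 48.8 ± 23.0. Fkbp5 was last of these 9 in high-fat water at 8.16 ± 4.45, and eighth in chow water at 29.6 ± 9.4. In high-fat water, neighbours differed by more than the larger SD between Klf9 and Sgk1 and between Nr3c1 and Cdkn1a, and at no other step among the 9. In high-fat tea the first was Klf9 at 60.1 ± 7.6 and the last Cdkn1a at 16.2 ± 8.4, and no neighbours among the 9 differed by more than the larger SD. With Mt2 counted again, high-fat water had the lowest group mean in 6 of the 10 members, and chow water the highest in 6. Mt2 is among the latter, with a chow water mean of 2.44 CPM that includes 8.73 CPM in replicate 1. The share of all genes with these orders was not computed.

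**Figure D2:**
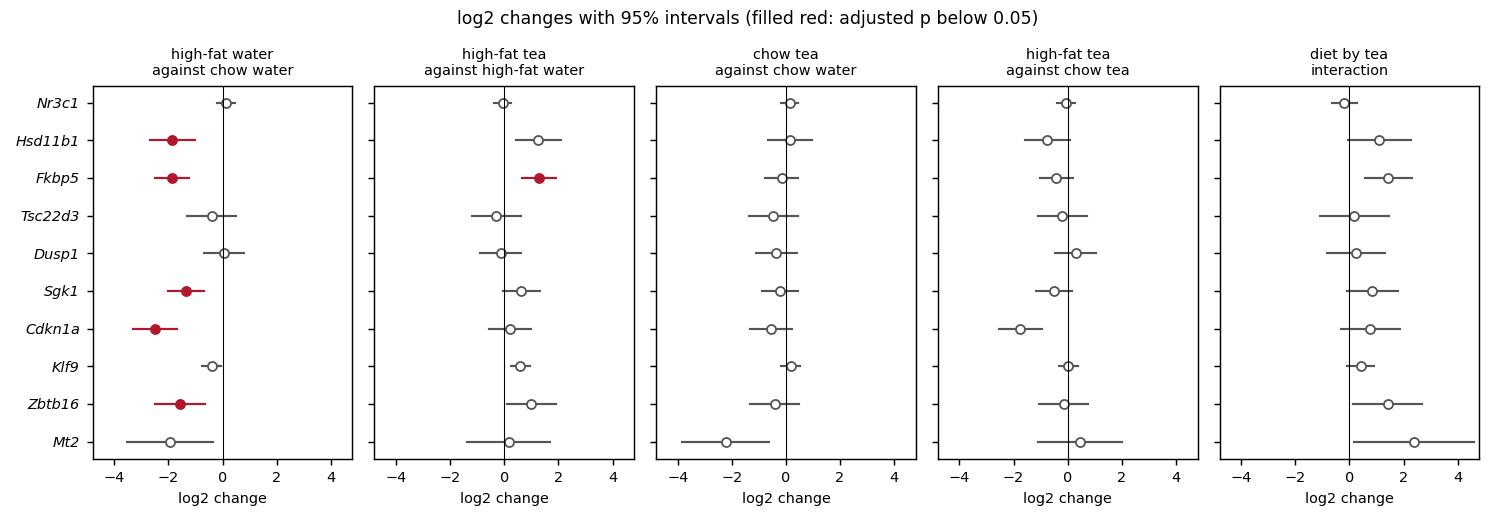
log2 change (points) with its 95% interval (lines) of the 10 genes in the 5 comparisons, where filled red points have an adjusted p below 0.05. In high-fat water against chow water 5 genes are filled, from −2.51 for Cdkn1a to −1.35 for Sgk1. Fkbp5 at 1.29 is the one filled point in high-fat tea against high-fat water.

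Tea in high-fat-fed mice was tested to see whether the tea extract moved these genes under that diet. Fkbp5 rose and the other 9 members did not pass the test, while 2.06% of all genes tested were called higher and 4.36% in either direction. At an unadjusted p below 0.05 there were 4 members, all higher, against 23.6% of all genes. DESeq2 called 3 members and limma voom 2. Over all genes DESeq2 called 2431, against 928 with edgeR. Fkbp5 averaged 188 ± 30.4 CPM in high-fat tea and 77.2 ± 42.1 CPM in high-fat water (SD, n = 5 each), a 2.44-fold difference (log2 1.29, SE 0.30, adjusted p = 0.0240). Leaving out high-fat water replicate 1, 2 or 4 or high-fat tea replicate 3 ended the call (adjusted p up to 0.0669), and the log2 change stayed between 1.12 and 1.67 whichever library was dropped. It also ended in a fit to these 2 groups alone (log2 1.30, adjusted p = 0.0909) and without the 9 libraries holding transcripts of other organs (log2 1.86, adjusted p = 0.103). Without those 9, only replicates 1 and 2 of high-fat water and 2 and 5 of high-fat tea were left in these groups. Of all genes 13 were called there, against 928 with all libraries.

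Klf9 and Hsd11b1 lay next to the threshold. Klf9 had 295, 264, 350, 277 and 260 CPM in high-fat tea replicates 1 to 5, all above the high-fat water range of 134 to 255 CPM. Fkbp5 and Klf9 were the 2 members whose groups did not overlap, a separation upwards that 2.37% of all genes had. For Klf9 the log2 change was 0.59 (SE 0.17, adjusted p = 0.0547), and it was called by limma voom (adjusted p = 0.0394), by DESeq2 (adjusted p = 0.00997), with DESeq2's size factors (adjusted p = 0.0487) and with halved counts (adjusted p = 0.0464). Hsd11b1 averaged 117 ± 78.6 CPM in high-fat tea and 48.9 ± 13.1 CPM in high-fat water (log2 1.26, SE 0.40, adjusted p = 0.0730). Without high-fat tea replicate 4 the change of Hsd11b1 was 0.78, and DESeq2 called it with all libraries (adjusted p = 0.0160).

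The remaining members did not pass the test with tea in high-fat feeding. Zbtb16 had 164, 161, 165, 48.9 and 127 CPM in high-fat tea replicates 1 to 5, where replicate 4 fell within the high-fat water range of 38.0 to 136 CPM (log2 0.99, SE 0.43, adjusted p = 0.171). Sgk1 overlapped through the 2 low high-fat tea libraries (log2 0.63, SE 0.32, adjusted p = 0.238). Cdkn1a averaged 57.6 ± 30.0 CPM in high-fat tea and 49.8 ± 13.9 CPM in high-fat water (log2 0.21, SE 0.37, 95% interval −0.56 to 0.98, adjusted p = 0.782). Tsc22d3, Dusp1, Nr3c1 and Mt2 had log2 changes of −0.29 to 0.16 with adjusted p from 0.732 to 0.929. In high-fat tea replicate 4, 7 of the 10 members had their lowest value of the group, beside the low adipocyte markers of that library, and the part of that library's makeup in these values was not tested.

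**Figure D3:**
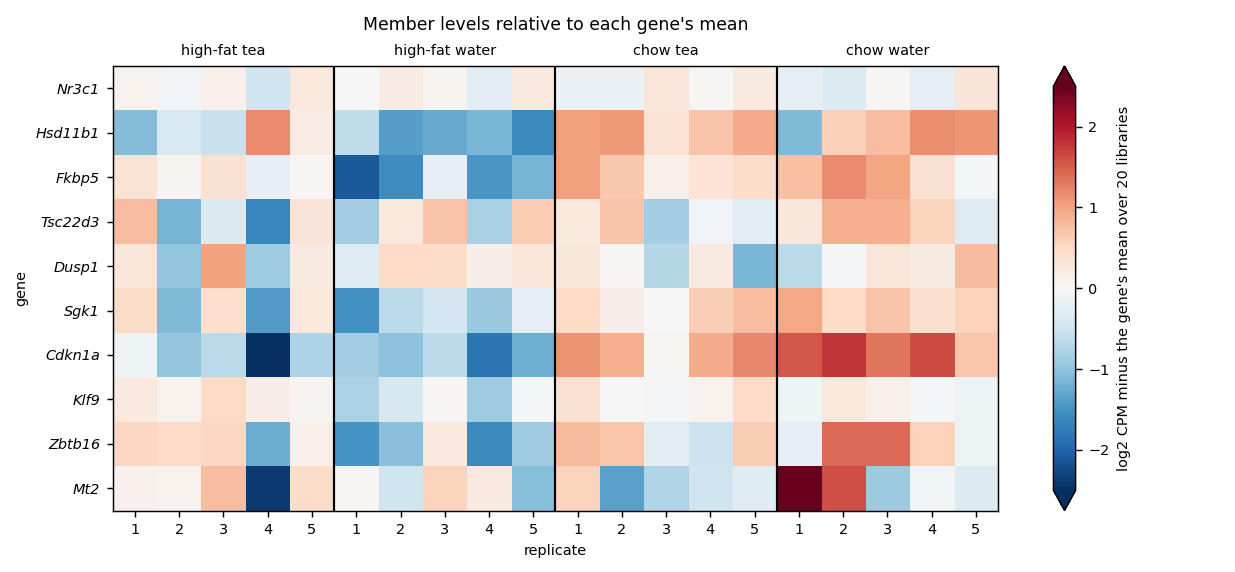
log2 CPM of each gene in each library minus the gene's mean over 20 libraries, in columns by group and replicate, with the colour scale ending at −2.5 and 2.5 and values beyond it drawn in its end colours. Cdkn1a is blue across both high-fat groups and red in chow water, where it ranges from 168 to 358 CPM. Fkbp5 is darkest blue in high-fat water replicate 1, at 39.8 CPM.

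In chow-fed mice, tea moved 0 of the 10 members past the threshold in edgeR, as with DESeq2 and limma voom, and 1 member had an unadjusted p below 0.05. Over all genes edgeR called 5 (0.0235%) and DESeq2 261, and 12.4% had an unadjusted p below 0.05 in edgeR. That member was Mt2 (log2 −2.23, adjusted p = 0.259), whose change was −0.76 without chow water replicate 1. Cdkn1a averaged 193 ± 52.7 CPM in chow tea and 284 ± 73.1 CPM in chow water (log2 −0.55, SE 0.37, adjusted p = 0.584). Fkbp5 averaged 252 ± 62.1 CPM in chow tea and 280 ± 88.7 CPM in chow water (log2 −0.15, SE 0.29, 95% interval −0.77 to 0.46, adjusted p = 0.895). The intervals of the 10 members do not show that the drinks left these genes alike.

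Between the diets in tea-drinking mice, 0 of the 10 members were called by edgeR, with 1 at an unadjusted p below 0.05, and DESeq2 and limma voom called 1 each. Of all genes, edgeR called 38 (0.178%) and DESeq2 921, and 16.3% had an unadjusted p below 0.05 in edgeR. The gene was Cdkn1a, which averaged 57.6 ± 30.0 CPM in high-fat tea and 193 ± 52.7 CPM in chow tea (log2 −1.75, SE 0.38, adjusted p = 0.0613). It was the 1 member with separate groups, against 1.59% of all genes downwards. DESeq2 gave it an adjusted p of 0.000574 and limma voom one of 0.0487, and edgeR called it without high-fat tea replicate 3 or 4. Without the 3 libraries above 10000 CPM of other organs, Cdkn1a (log2 −1.49, adjusted p = 0.0151) and Hsd11b1 (log2 −1.23, adjusted p = 0.0295) were both called. With all libraries Hsd11b1 stood at −0.75 (SE 0.39, adjusted p = 0.350). Fkbp5 stood at −0.42 (SE 0.29, adjusted p = 0.497) in this comparison.

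Whether tea acted differently under the 2 diets was tested by the interaction, the log2 change with tea under high-fat feeding minus that under chow. edgeR called 0 of the 10 members and 14 of all genes (0.0657%), and limma voom called 0 members. DESeq2 called 1 member and 691 of all genes. In edgeR 3 members had an unadjusted p below 0.05, against 15% of all genes. Fkbp5 had an interaction of 1.44 (SE 0.41, 95% interval 0.57 to 2.31, adjusted p = 0.127), and DESeq2 called it at 1.47 (adjusted p = 0.0238). Zbtb16 stood at 1.41 (SE 0.61, adjusted p = 0.275) and Mt2 at 2.39 (SE 1.05, adjusted p = 0.290; 0.94 without chow water replicate 1). The estimate was above 0 in 9 of the 10 members, with Nr3c1 at −0.19. The comparisons share their control libraries, so the members' values in them are not independent.

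The 5 genes outside the members whose levels most resembled those of Fkbp5 over the 20 libraries were Klf15, Syde2, Dennd2d, Eva1c and Snhg16. Likeness was the mean absolute difference of log2 CPM, each gene centred on its own mean, over 12113 genes compared. It was 0.289 for Klf15, a transcription factor that the receptor induces, 0.305 for Syde2, 0.315 for Dennd2d, 0.323 for Eva1c and 0.341 for Snhg16, against a median of 0.754 over all genes compared. Among members the nearest were Zbtb16 at 0.377, Sgk1 at 0.479 and Klf9 at 0.494, while Nr3c1 stood at 0.753 and Mt2 at 0.975. Klf15 averaged 87.1 CPM in high-fat tea, 39.5 CPM in high-fat water, 113 CPM in chow tea and 111 CPM in chow water. These values describe the same libraries that the tests used.

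**Figure D4:**
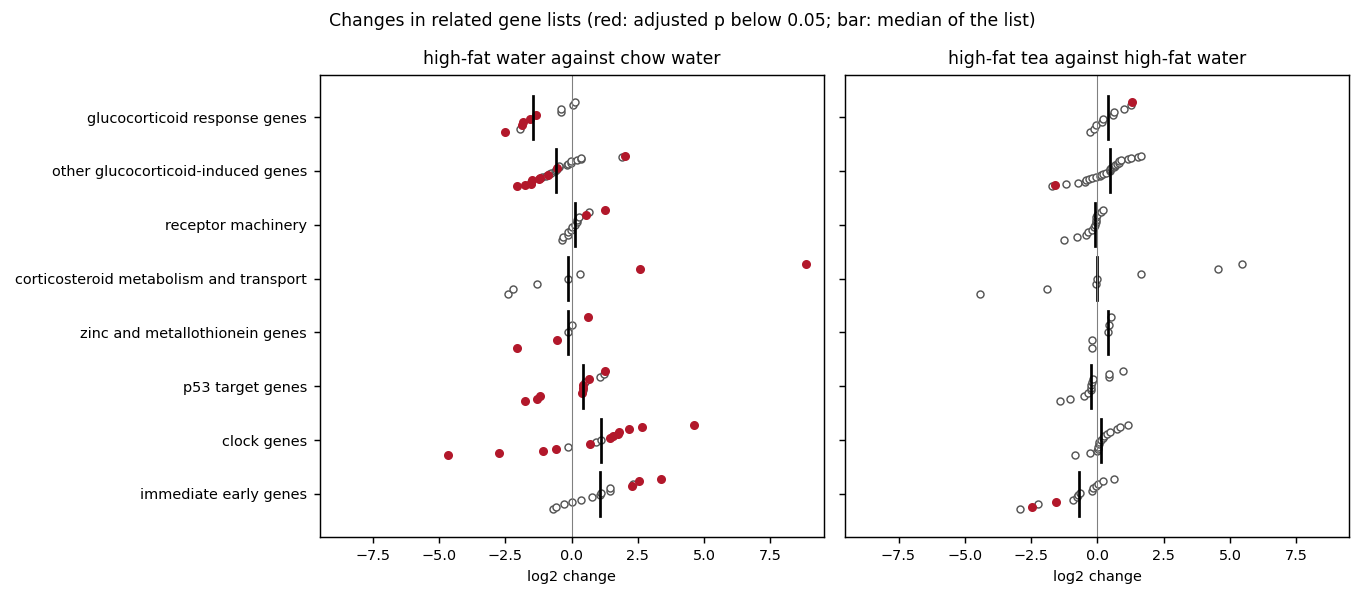
log2 change of each gene of 8 lists (points; red where the adjusted p is below 0.05) with the median of the list (bars), for high-fat water against chow water and high-fat tea against high-fat water. The medians of the glucocorticoid response genes and of the other glucocorticoid-induced genes lie at −1.46 and −0.60 on the left, and at 0.40 and 0.46 on the right.

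Among 28 other genes that glucocorticoids induce in various tissues, 9 fell and 1 rose in high-fat water against chow water, with a median log2 change of −0.60. Of all genes tested, 7.11% were called lower and 8.06% higher, and this list too was chosen with earlier results of these data known. Some genes of this list, among them Mt1, are also in the zinc, clock or immediate early lists below. Leaving out 1 library in turn gave 6 to 14 called genes, with 6 when chow water replicate 2 was dropped and likewise for high-fat water replicate 1, and 14 for chow water replicate 1. Klf15 (log2 −1.49, SE 0.33, adjusted p = 0.00693) and Pdk4, a kinase that restrains pyruvate oxidation (log2 −1.77, SE 0.40, adjusted p = 0.00755), were among those that fell. The gene that rose was Anxa1, an anti-inflammatory annexin, at 441 ± 189 CPM in high-fat water and 109 ± 47.4 CPM in chow water (log2 2.01, SE 0.42, adjusted p = 0.00501). With tea in high-fat feeding, 0 of the 28 rose and 1 fell by edgeR, while DESeq2 called 4 and limma voom 2. Over all genes DESeq2 called 2431 in that comparison, against 928 with edgeR. At an unadjusted p below 0.05 there were 12, against 23.6% of all genes. The gene that fell was again Anxa1 at 144 ± 104 CPM in high-fat tea and 441 ± 189 CPM in high-fat water (log2 −1.61, SE 0.42, adjusted p = 0.0362). Klf15 (log2 1.14, SE 0.33, adjusted p = 0.0535) and Glul, glutamine synthetase (log2 1.25, SE 0.38, adjusted p = 0.0629), were not called, and the median was 0.46. Without the 3 libraries above 10000 CPM of other organs, 4 of the 28 rose and 1 fell with tea in high-fat feeding. Leaving out 1 library in turn gave 0 to 3, with 3 when high-fat tea replicate 4 or 5 was dropped. In the other 3 comparisons edgeR, DESeq2 and limma voom each called 0 of the 28. There 2 to 6 had an unadjusted p below 0.05, against 12.4% to 16.3% of all genes.

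Of 13 genes, chaperones and cofactors of the receptor and a related receptor, 2 rose and 0 fell in high-fat water against chow water. That is a share close to the 15.2% called over all genes. They included the heat-shock co-chaperone Dnajb1 (log2 1.27, SE 0.38, adjusted p = 0.0323). Leaving out 1 library in turn gave 1 to 3 called genes, with 1 when chow water replicate 3 or 5, or replicate 4 of high-fat water, was dropped. Of 7 tested genes of corticosteroid metabolism and transport 2 rose, Cyp11a1, the first enzyme of steroid synthesis, and Abcb1b, an efflux pump. Both were highest in high-fat water replicate 4, at 1500 CPM and 702 CPM, and that library held 14770 CPM of adrenal cortex markers. Without it, or without any 1 of the chow water libraries, 0 of the 7 were called, and DESeq2 and limma voom called 0 with all libraries. Of 5 tested zinc and metallothionein genes 2 fell, among them Mt1 and the zinc exporter Slc30a1 (log2 −0.56, SE 0.14), and the zinc importer Slc39a10 rose (log2 0.62, SE 0.19). Leaving out 1 library in turn gave 2 to 3 called zinc and metallothionein genes, including 2 when chow water replicate 1, the library with pancreas transcripts, was dropped.

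Targets of p53, of which Cdkn1a is one, did not move in 1 direction. Of 12 others, 5 rose and 3 fell in high-fat water against chow water, where 8.06% of all genes were called higher and 7.11% lower. Sesn2 (log2 −1.30, SE 0.26, adjusted p = 0.00412) and Trp53inp1 (log2 −1.77, SE 0.36, adjusted p = 0.00469) fell, and Mdm2, the p53 ubiquitin ligase, rose (log2 0.40, SE 0.09, adjusted p = 0.00737). Without high-fat water replicate 1, 2 or 3, 5 of the 12 were called. With tea in high-fat feeding edgeR and limma voom called 0 of the receptor, corticosteroid, zinc and p53 lists. At an unadjusted p below 0.05 there were 4 of 13, 3 of 7, 1 of 5 and 6 of 12 genes in that order, against 23.6% of all genes. DESeq2 called 3, 0, 1 and 3 of these lists, and 2431 of all genes against 928 with edgeR.

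Of 15 clock genes, 8 rose and 4 fell in high-fat water against chow water, where 8.06% of all genes were called higher and 7.11% lower. Dbp, an output of the clock, averaged 68.3 ± 13.4 CPM in high-fat water and 2.77 ± 0.69 CPM in chow water (log2 4.62, SE 0.23). Npas2, of the activating arm, averaged 1.07 ± 0.59 CPM in high-fat water and 26.9 ± 4.4 CPM in chow water (log2 −4.65, SE 0.37). In high-fat tea against chow tea 5 rose and 3 fell, among them Dbp (log2 2.89, SE 0.22, adjusted p = 1.56e-06), Npas2 (log2 −3.90, SE 0.36, adjusted p = 2.29e-05) and the core activator Arntl (log2 −2.93, SE 0.31, adjusted p = 0.000127). There 13 of the 15 had an unadjusted p below 0.05, against 16.3% of all genes. In high-fat tea against high-fat water edgeR and limma voom called 0 of the 15. DESeq2 called 1 of the 15, and 2431 of all genes against 928 with edgeR. There 6 had an unadjusted p below 0.05, against 23.6% of all genes. In chow tea against chow water Dbp (log2 1.70, SE 0.21, adjusted p = 0.00352) and Nr1d1 (log2 1.65, SE 0.21, adjusted p = 0.00374) rose. There 7 of the 15 had an unadjusted p below 0.05, against 12.4% of all genes. The interaction was called for Dbp (log2 −1.73, SE 0.29, adjusted p = 0.0291), a count of 1 that became 0 in most fits without a single library, with limma voom and without the 9 libraries. Corticosterone was not measured, and the part of the clock in the members' differences was not tested.

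Immediate early genes, to which Dusp1 is often counted, included 3 of 14 that rose and 0 that fell in high-fat water against chow water. Of all genes 8.06% were called higher and 7.11% lower in that comparison. Atf3, a stress-induced transcription factor, averaged 10.6 ± 8.4 CPM in high-fat tea, 58.3 ± 14.2 CPM in high-fat water, 12.0 ± 8.4 CPM in chow tea and 10.0 ± 1.9 CPM in chow water. With tea in high-fat feeding Atf3 (log2 −2.46, SE 0.56, adjusted p = 0.0231) and Egr2 (log2 −1.55, SE 0.42, adjusted p = 0.0433) fell, and leaving out 1 library in turn gave 0 to 2 called genes. Of all genes 4.36% were called in either direction with tea in high-fat feeding. Of the cell type lists, 0 of 8 adipocyte markers were called in high-fat water against chow water by edgeR. Of these 8, 1 had an unadjusted p below 0.05, against 30.8% of all genes. The adipocyte markers summed to 22647 to 37937 CPM in high-fat water and 7753 to 42586 CPM in chow water. Of 8 macrophage markers 2 rose and 1 fell, and their unscaled sum ran from 676 to 1569 CPM in high-fat water and from 176 to 976 CPM in chow water. The part of cell composition in the members' differences was not tested.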

How the data were processed

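RNA was measured in 20 libraries, 5 separate mice in each of 4 groups. The authors deposited raw counts of reads per gene. Reads were trimmed with fastp 0.23.2, aligned with HISAT2 2.2.1 and counted with featureCounts 2.0.6, per the submitters' processing notes. The counts used GENCODE vM32 on GRCm39 per the file headers, whereas the notes name mm10. The headers show no strand option, although the labels' protocols name a stranded kit, so overlapping opposite genes are not separated. Per the file headers, paired-end input was set without counting pairs as 1 fragment, and 68.1 to 72.2% of low counts per library were even, so halved counts were an alternative.

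Totals were 53047057 to 93314761 reads in genes, and 0 rows named no gene. Within groups the lowest chi-square per gene of 40 library pairs was 61.6, so no pair looked like copies of 1 library. Genes were kept with edgeR 4.0.16 filterByExpr (minimum count 10, minimum total 15), leaving 21306 of 56805. One quasi-likelihood model over all 4 groups (TMM scaling, R 4.3.3) gave the comparisons, with Benjamini-Hochberg adjustment over all genes and calls below 0.05. CPM of single genes used scaled library sizes, and summed CPM of marker lists used total reads in genes. The code was tested on simulated data with less spread between libraries than these data and no library set apart by other organs. That test bears on the code and not on the calls made here. Alternatives were DESeq2 1.42.0, limma 3.58.1 voom, DESeq2 size factors, no filter, halved counts, fits to the groups compared, the replicate number as a block, leaving out each library, and leaving out 3 or 9 libraries with transcripts of other organs. The text names all 10 members, up to 3 genes of each related list with the lowest p in a comparison, and the 5 genes most like Fkbp5. Members and lists were chosen with earlier results of these data known. Promoters are RefSeq sequences of GRCm38.p6, and gene positions are GRCm39. One gene of a related list is counted but not reported here by name.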

Additional observations from a re-analysis of the deposited data

Results flagged for a closer look

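Zbtb16 in high-fat water replicate 3 lay apart from its group, at 136 CPM with the nearest of the other 4 libraries at 62.4 CPM, a gap of 0.752 of the group's range. Mt2 in chow water replicate 1 lay apart at 8.73 CPM, with the nearest library at 1.98 CPM, a gap of 0.806 of the range. The critical value for 5 libraries is 0.71, and chance alone passes it in about 1 in 20 groups of libraries. With 40 sets of a gene and a group examined, the 2 found are about as many as chance gives. Chow water replicate 1 also held 285669 CPM of pancreas markers, whose part in the Mt2 value was not tested.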

How the results depend on the processing

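Over the named alternatives other than leaving out single libraries, 414 member results kept direction and side of the threshold, 11 became called, 2 lost the call and 13 changed sign.
Members called in high-fat tea against high-fat water numbered 1, but 2 with DESeq2 size factors, 2 with halved counts, 2 with limma voom, 3 with DESeq2, 0 without the 9 libraries and 0 with only the groups compared. Without the 9 libraries, replicates 1 and 2 of high-fat water and 2 and 5 of high-fat tea were left, and 13 of all genes were called. In high-fat tea against chow tea they numbered 0, but 2 without the 3 libraries, 1 with limma voom and 1 with DESeq2. The interaction had 0, but 1 with DESeq2. Leaving out 1 library gave 4 to 5 in high-fat water against chow water, 0 to 2 in high-fat tea against high-fat water, 0 to 1 in high-fat tea against chow tea, and 0 to 0 in chow tea against chow water and the interaction.
Signs changed in log2 changes that were not called. In high-fat water against chow water Dusp1 was −0.077 without the 3 libraries and −0.34 without the 9, and −0.14 to 0.25 leaving out 1 library, and Mt2 was 0.16 without the 9. In high-fat tea against high-fat water Dusp1 was 0.023 without the 3 (−0.46 to 0.058 leaving out 1 library), Nr3c1 0.0069 without the 9 (−0.13 to 0.047), Cdkn1a −6.72e-05 with limma voom (−0.053 to 0.47), and Mt2 −0.056 to 0.43. In chow tea against chow water Hsd11b1 was −0.080 without the 3 and −0.24 without the 9 (−0.10 to 0.30). In high-fat tea against chow tea, without the 3 libraries, Nr3c1 was 0.044 (−0.14 to 0.044 leaving out 1 library), Tsc22d3 0.0083 (−0.57 to 0.018) and Zbtb16 0.058 (−0.31 to 0.058), and without the 9 Klf9 was −0.079 (−0.059 to 0.097) and Zbtb16 0.083. Dusp1 there ran from −0.047 to 0.47 leaving out 1 library. For the interaction Tsc22d3 ran from −0.18 to 0.41 and Dusp1 from −0.10 to 0.44. The cause was not tested.
All genes called numbered 3232 in high-fat water against chow water (2052 to 4546 over the alternatives other than single libraries, 1890 to 3445 leaving out 1 library, the lowest when replicate 1 of high-fat water was dropped), 928 in high-fat tea against high-fat water (13 to 2431; 212 without high-fat water replicate 1 to 2017 without high-fat tea replicate 5), 5 in chow tea against chow water (0 to 261; 2 to 6), 38 in high-fat tea against chow tea (5 to 921; 10 without chow tea replicate 5 to 390 without high-fat tea replicate 3) and 14 for the interaction (0 to 691; 3 without chow water replicate 2 to 111 without high-fat tea replicate 5). Of the list counts 254 were within 1.5 times and 54 moved.
Replicate numbers were not stated to pair the mice. Correlations of same-numbered libraries ran from −0.27 to 0.47, and 4 of 20 libraries correlated best with their own number. The mean correlation ran from −0.054 for replicate 1 to 0.12 for replicate 5, against −0.0044 for libraries of different numbers. With the replicate block 5, 1, 0, 0 and 0 members were called, in the order of the all-gene counts above.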
